A study of Caenorhabditis elegans with 4 samples.

Results

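lin-4-5p and miR-237-5p are the *Caenorhabditis elegans* members of the lin-4/miR-125 family of microRNAs (miRNAs), and their association with the miRNA Argonautes ALG-1 and ALG-2 was measured in adult animals. They were chosen by name, as the family's 2 rows in a table of 66 mature miRNAs. Animals were collected at day 5 of adulthood, after eggs and larvae had been removed, from a strain carrying FLAG::GFP::ALG-1 (PQ530) and from a strain carrying FLAG::RFP::ALG-2 (PQ582). In each strain the tag was edited into the endogenous Argonaute gene, and the tagged protein was recovered from whole worms grown at 20°C with an antibody against FLAG. Small RNAs from 2 independent co-immunoprecipitations (co-IPs) of each protein were sequenced. The Argonaute and its fluorescent tag change together between the strains, so their effects cannot be told apart, and no input RNA or untagged strain was analysed here. In whole-animal samples, fewer cells that contain a miRNA and less of it per cell also cannot be told apart.

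Argonautes hold a mature miRNA and use its 5′ end, the seed, to find partly complementary sites in messenger RNAs, which are then repressed. *lin-4* is the founding member of all miRNAs. It acts in the heterochronic pathway, which times larval development, by repressing *lin-14* and *lin-28*, and animals without *lin-4* are also short lived. miR-237 carries the same seed as lin-4 and is its closest relative in worms, and miR-125 is the vertebrate form of the family. The *lin-4* gene lies on chromosome II at 5902254-5902347 (WBcel235), within the span of the protein-coding gene *F59G1.4* and overlapping the non-coding RNA gene *F59G1.10*. *mir-237* lies on chromosome X at 8154084-8154182 and overlaps no other annotated gene. Each is separate from other miRNA genes, as the nearest annotated one is 66711 bp from *lin-4* and 76420 bp from *mir-237*.

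Values are normalized reads, scaled to a library total of 1000000 (RPM). RPM is a share of the reads of a co-IP, and the amount of a miRNA bound to each Argonaute was not measured. Whether library preparation captured different miRNAs equally was not tested, so read ratios between miRNAs need not be ratios of molecules. Within a co-IP, libraries are named A and B by column order, because the columns carry no replicate number. Library sizes, the totals behind RPM, were inferred from the steps between RPM values and lay between 6428905 and 25703472 reads. The listed miRNAs took 99.3% to 99.5% of these totals. Whether the totals hold all sequenced reads or only those assigned to miRNAs is not known here, so every share of a library refers to them. ALG-1 libraries A and B resembled each other (Pearson r of 0.970 across the 66 log2 values, which are not independent replicates) more than ALG-2 libraries A and B did (r of 0.869). Accordingly, the median miRNA differed by 0.34 on the log2 scale between the ALG-1 libraries and by 0.90 between the ALG-2 libraries. The values of each library are therefore given separately.

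lin-4-5p was scarce among the reads of both co-IPs but took a larger share of them with ALG-1. It reached 914 and 720 RPM in ALG-1 libraries A and B, against 343 and 181 RPM in ALG-2 libraries A and B. Both ALG-1 values lay above both ALG-2 values, as they did for 18 of the 66 listed miRNAs (27.3%), and the smallest gap was 2.10-fold. The ALG-1 mean was 817 ± 138 RPM and the ALG-2 mean 262 ± 115 RPM (SD, n = 2 libraries per co-IP). The ALG-1 libraries differed 1.27-fold in lin-4-5p and the ALG-2 libraries 1.90-fold. On the log2 scale these differences were 0.35 and 0.92, close to those of the median miRNA. By the inferred library sizes, the values rested on 10628 and 4626 lin-4-5p reads with ALG-1 and on 4250 and 4641 with ALG-2, for which counting alone gives an error of at most 1.53%.

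miR-237-5p, in contrast, was common among the reads. It reached 13369 and 16078 RPM in ALG-1 libraries A and B, against 4225 and 6393 RPM in ALG-2 libraries A and B. Again, both ALG-1 values lay above both ALG-2 values, in this case with a smallest gap of 2.09-fold. The ALG-1 mean was 14724 ± 1915 RPM and the ALG-2 mean 5309 ± 1533 RPM (SD, n = 2 libraries per co-IP). The ALG-1 libraries differed 1.20-fold in miR-237-5p and the ALG-2 libraries 1.51-fold. On the log2 scale these differences were 0.27 and 0.60, both smaller than those of the median miRNA. Counting error was at most 0.437%.

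**Figure D1:**
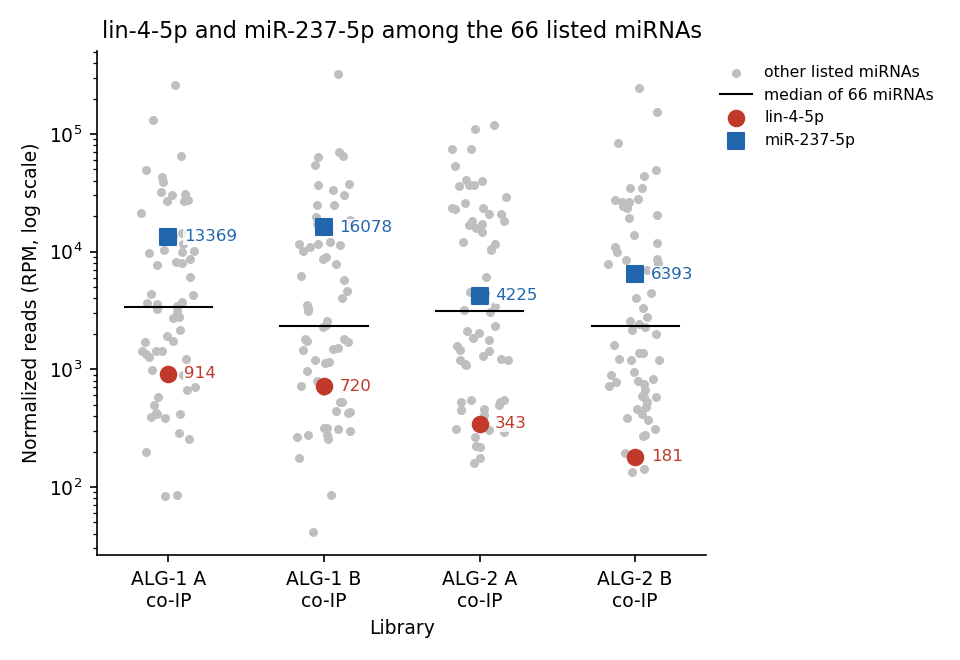
Normalized reads of lin-4-5p (circles), miR-237-5p (squares) and the other listed miRNAs (grey points) in each of the 4 co-IP libraries, on a logarithmic axis in RPM, with the median of the 66 miRNAs as a line. miR-237-5p lay above the median and lin-4-5p below it in every library, and each ALG-1 value of a member (for miR-237-5p, at least 13369 RPM) lay above its ALG-2 values (for miR-237-5p, at most 6393 RPM).

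The position of each miRNA among the 66 shifted in the same direction as its level. lin-4-5p held rank 49 in each ALG-1 library, but ranks 58 and 64 in ALG-2 libraries A and B, where only 8 and 2 listed miRNAs were rarer. miR-237-5p held ranks 17 and 15 in the ALG-1 libraries and ranks 31 and 26 in the ALG-2 libraries. Relative to the median miRNA of the same library, miR-237-5p was 3.99 and 6.91 times as abundant with ALG-1 but 1.35 and 2.71 times with ALG-2. lin-4-5p was at 0.273 and 0.309 of the median with ALG-1, and at 0.109 and 0.0767 of it with ALG-2. These ranks are among miRNAs that the authors listed, which excluded the rarest ones, so they do not describe all miRNAs of the worm.

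By the mean over the 4 libraries, miR-237-5p took rank 23 (10017 RPM), between miR-61-3p (10116 RPM) and miR-85-3p (9275 RPM). Likewise, lin-4-5p took rank 56 (539 RPM), between miR-240-3p (581 RPM) and miR-83-3p (487 RPM). The library values of each overlapped those of both of its neighbours, so this order is not resolved at either position. miR-237-5p and lin-4-5p themselves did not overlap. The lowest miR-237-5p value was 4225 RPM, whereas the highest lin-4-5p value was 914 RPM.

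Together the family took a small share of the reads of each library, and nearly all of its reads were miR-237-5p. The sum of both miRNAs was 1.43% and 1.68% of the ALG-1 libraries, against 0.457% and 0.657% of the ALG-2 libraries. The log2 ratio of the sums, ALG-1 over ALG-2, was 1.499, and between single libraries the sum was 2.17 to 3.68 times as high with ALG-1. Of the family's reads, miR-237-5p made up 93.6% and 95.7% with ALG-1, and 92.5% and 97.3% with ALG-2.

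To compare the co-IPs, each ALG-1 library was divided by each ALG-2 library for every miRNA, and all 4 ratios had to exceed 1.5 for a miRNA to count as enriched. Both family members met this requirement toward ALG-1, against a background of 9 of 66 miRNAs (13.6%). For lin-4-5p, ALG-1 library A was 2.67 and 5.06 times as high as ALG-2 libraries A and B, and ALG-1 library B was 2.10 and 3.99 times as high. For miR-237-5p, the corresponding ratios were 3.16 and 2.09 for ALG-1 library A, and 3.81 and 2.51 for ALG-1 library B. Hence, in RPM, both also stayed above 2-fold in each ratio, which 6 of the 66 miRNAs did. Under median-of-ratios and TMM scaling the lowest ratio was 2.17 and 2.12 for lin-4-5p, but 1.89 and 1.77 for miR-237-5p.

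**Figure D2:**
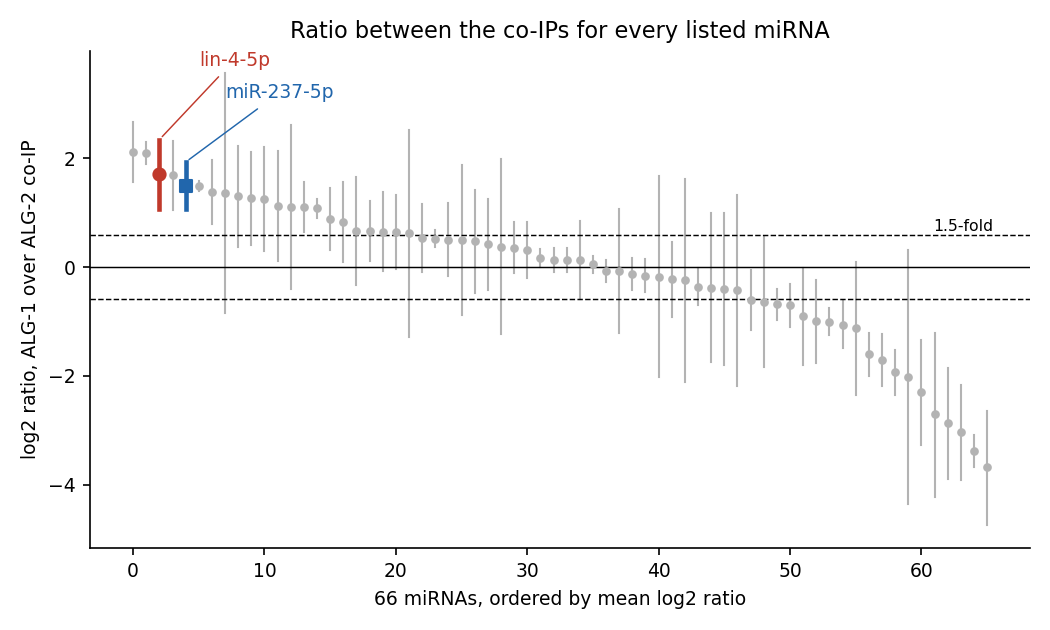
Log2 ratio of ALG-1 over ALG-2 RPM for each of the 66 miRNAs, ordered from the highest to the lowest mean, where points are means and lines span the 4 library ratios. Dashed lines mark 1.5-fold in each direction. The lines of lin-4-5p and miR-237-5p, ranks 3 and 5 from the left, lie wholly above 1.5-fold, with lowest ratios of 2.10 and 2.09.

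Both members were also tested on log2(RPM + 1) with limma, a linear model that draws each miRNA's variance between libraries toward that of all miRNAs. The fit assumes the same variance in both co-IPs. The median miRNA, however, differed by 0.34 on the log2 scale between the ALG-1 libraries and by 0.90 between the ALG-2 libraries. The log2 ratio of lin-4-5p was 1.70 ± 0.62 (SE), with a 95% interval from 0.20 to 3.21, and it took rank 3 of the 66 toward ALG-1. The log2 ratio of miR-237-5p was 1.496 ± 0.50 (SE), with an interval from 0.28 to 2.71 and rank 5. Before adjustment the limma p-values were 0.0326 for lin-4-5p and 0.0237 for miR-237-5p, and 7 of the 66 miRNAs (10.6%) were higher with ALG-1 at p below 0.05. After Benjamini-Hochberg adjustment over the 66 miRNAs the limma p-values were 0.154 and 0.130, so neither difference was significant, and 0 of the 66 (0.0%) were significantly higher with ALG-1. Across all miRNAs the median log2 ratio was 0.13, which is small compared to the ratios of both members. For 1 miRNA alone, the smallest two-sided p that an exact permutation of 2 against 2 libraries can reach is 0.333.

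The denominator of RPM is shared by all miRNAs, and in these libraries the miR-35 family, miRNAs of oocytes and embryos, took a larger share with ALG-2, opposite to the lin-4 family. Of its 8 members 6 were listed. Of these, 5 were higher in both ALG-2 libraries, against 25.8% of all listed miRNAs, miR-38-3p overlapped, and 1 passed the limma test, against 1.52% of all listed miRNAs. The 6 members summed to 4.84% and 4.19% of the ALG-1 libraries, against 26.5% and 14.1% of the ALG-2 libraries. After the miR-35 family was removed and the libraries were rescaled, lin-4-5p had 967 and 755 RPM with ALG-1, against 470 and 212 RPM with ALG-2. miR-237-5p then had 14145 and 16870 RPM with ALG-1, against 5799 and 7492 RPM with ALG-2. The lowest of the 4 ratios fell to 1.61 for lin-4-5p and 1.89 for miR-237-5p, so both still exceeded 1.5-fold. The muscle miRNA miR-1-3p was not analysed here.

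A comparison that needs no scaling sets each member against another miRNA of the same library. The ratio of lin-4-5p to the other miRNA was higher in both ALG-1 libraries than in both ALG-2 libraries for 49 of the 65 others, and lower for 0. The ranges of the 16 remaining ratios overlapped. For miR-237-5p the ratio was higher with ALG-1 for 40 of the 65 others, lower for 2 and overlapping for 23. These counts are a description, since the 65 ratios share the same numerator.

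The design also allows the question of whether the family members differ from each other in their ratio of ALG-1 to ALG-2 RPM. There were 14.6 and 22.3 reads of miR-237-5p per read of lin-4-5p in ALG-1 libraries A and B, against 12.3 and 35.4 in ALG-2 libraries A and B. The lowest and the highest value both came from ALG-2, so the groups overlapped. The ALG-1 average was 18.5 ± 5.46 and the ALG-2 average 23.9 ± 16.3 (SD, n = 2 libraries per co-IP). On the log2 scale the difference, ALG-1 minus ALG-2, was -0.21, and an exact permutation test, two-sided, gave p = 1. The sign of this difference turned without ALG-1 library A (0.097) and without ALG-2 library B (0.55). Formed between single libraries, the ALG-1 value ranged from 0.413 to 1.81 times the ALG-2 value. An exact permutation test of this size cannot reach p = 0.05, so this result does not show that the members had the same ratio between the co-IPs.

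**Figure D3:**
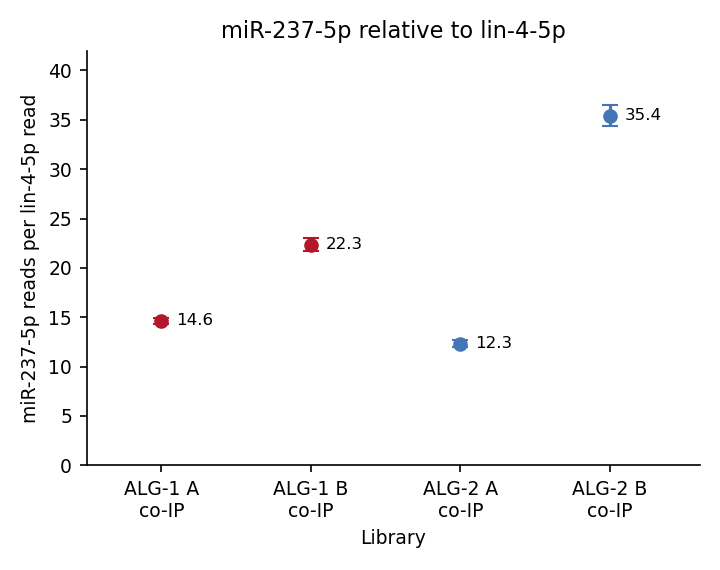
Reads of miR-237-5p per read of lin-4-5p in each co-IP library, with exact (Clopper-Pearson) 95% intervals that cover counting error only. The ALG-2 values of 12.3 and 35.4 lie on either side of the ALG-1 values of 14.6 and 22.3.

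This ratio differed between replicates well beyond counting error. The exact (Clopper-Pearson) 95% intervals were 14.3 to 14.9 and 21.7 to 23.0 for the ALG-1 libraries, and 11.9 to 12.7 and 34.4 to 36.5 for the ALG-2 libraries, so that no interval touched another. In each co-IP the members moved in opposite directions between the libraries. The library with more miR-237-5p was library B in both cases (16078 RPM for ALG-1, 6393 RPM for ALG-2), and it had less lin-4-5p than library A (720 against 914 RPM for ALG-1, 181 against 343 RPM for ALG-2). Running numbers in the column names place the A libraries next to each other and the B libraries next to each other, but no source used here says that they mark a shared preparation. Since reads of both miRNAs came from the same library, depth does not enter this ratio.

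The let-7 family acts after lin-4 in the heterochronic pathway, where let-7 itself represses *lin-41*. The 4 members chosen here were let-7-5p, miR-48-5p, miR-84-5p and miR-241-5p. A further listed member, miR-795-5p, was not among them and is not in the counts, median or sum below. It had 255 and 253 RPM with ALG-1, against 223 and 271 RPM in ALG-2 libraries A and B, so its groups overlapped. In RPM, each of the chosen 4 was higher in both ALG-1 libraries, against 27.3% of all listed miRNAs. For miR-84-5p, however, the lowest ratio was only 1.002. Under median-of-ratios and TMM scaling 3 of the 4 were, with miR-84-5p overlapping, and without the miR-35 family miR-84-5p was higher in both ALG-2 libraries. In RPM, 2 of the 4 passed the 1.5-fold requirement toward ALG-1, against 13.6% of all listed miRNAs. Under median-of-ratios and TMM scaling 1 of the 4 passed, and 0 passed without the miR-35 family. The limma test was passed by 0 of the 4. Their median log2 ratio was 1.09, compared to 0.13 for all 66 miRNAs. miR-48-5p, the most abundant of them, had 32410 and 33263 RPM with ALG-1, against 17295 and 13972 RPM in the ALG-2 libraries. let-7-5p had 1713 RPM in each ALG-1 library, against 1093 and 578 RPM in ALG-2 libraries A and B. Relative to let-7-5p, lin-4-5p was present at 0.534 and 0.420 reads per read with ALG-1 and at 0.313 and 0.312 with ALG-2, so the groups did not overlap. Relative to the 4 chosen let-7 family members summed, miR-237-5p was at 0.344 and 0.405 with ALG-1 and at 0.192 and 0.339 with ALG-2. There the lower ALG-1 value was close to the higher ALG-2 value. Relative to miR-48-5p alone, miR-237-5p was at 0.413 and 0.483 with ALG-1 and at 0.244 and 0.458 with ALG-2, and here the groups overlapped.

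lin-4 is also one of the miRNAs that affect lifespan. A further 7 miRNAs were miR-71-5p, miR-80-3p, miR-228-5p, miR-238-3p, miR-239a-5p, miR-239b-5p and miR-246-3p. Their loss changes lifespan, in the case of miR-239a and miR-239b when both are lost together. The 7 had a median log2 ratio of 0.52, ALG-1 over ALG-2, compared to 0.13 for all 66 listed miRNAs. Of these 7, 0 passed the 1.5-fold requirement toward ALG-1, against 13.6% of all listed miRNAs, and 0 passed the limma test. That requirement used all 4 ratios, whereas the paper's criterion was over 1.5-fold in independent replicates. By its own criterion, the paper counted miR-71 as well as lin-4 among the miRNAs enriched with ALG-1. miR-71-5p, whose loss shortens lifespan, and miR-80-3p, whose loss extends it, had more RPM in both ALG-1 libraries, with lowest ratios of 1.07 and 1.28. This is 2 of 7, against 27.3% of all listed miRNAs, and neither held after the miR-35 family was left out. miR-246-3p had less RPM in both ALG-1 libraries, and the other 4 of the 7 overlapped between the co-IPs. The other listed arm of miR-80, miR-80-5p, was not among the 7 and went the opposite way to miR-80-3p. It had 423 and 313 RPM with ALG-1, against 524 and 668 RPM with ALG-2.

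The miRNAs whose profiles most resembled each member were found by the distance between log2(RPM + 1) values over the 4 libraries, each centred on its own mean. Nearest to lin-4-5p were let-7-5p (distance 0.643), miR-57-5p (0.796) and miR-48-5p (0.805). Nearest to miR-237-5p were miR-63-3p (0.312), with miR-57-5p (0.394) and then miR-240-3p (0.441). miR-57-5p, which was near to both, had 65097 and 70936 RPM with ALG-1, against 23670 and 24650 RPM in the ALG-2 libraries. miR-63-3p had 1221 and 1524 RPM with ALG-1, against 305 and 590 RPM with ALG-2. Like miR-237-5p, it was lowest in ALG-2 library A. The family members lay further from each other, at 1.175. By this measure miR-237-5p was number 9 of the 65 others for lin-4-5p, and lin-4-5p was number 16 for miR-237-5p. With only 4 libraries, 2 to a group, the order is a description.

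**Figure D4:**
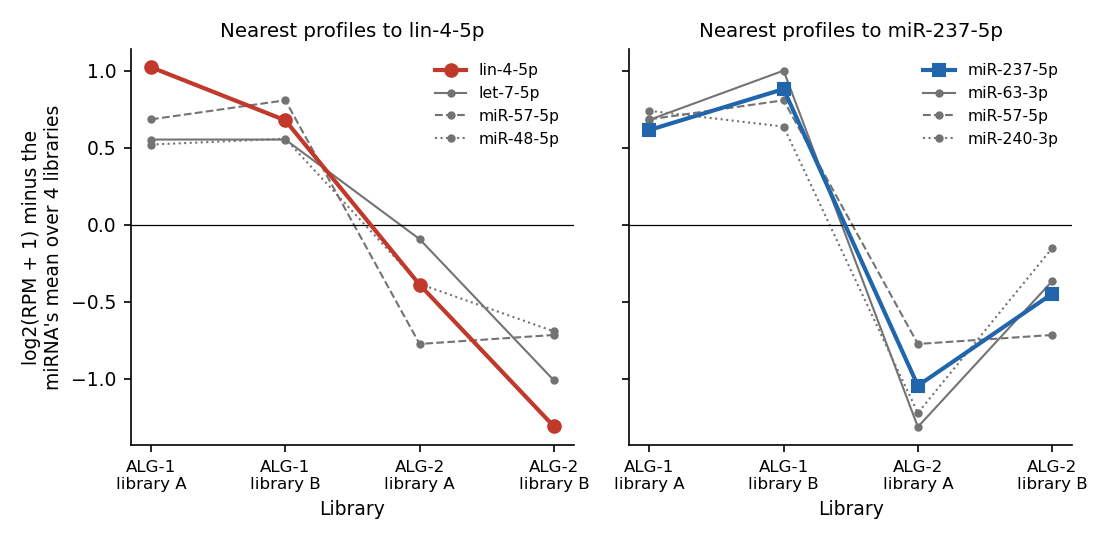
log2(RPM + 1) of each member and of the 3 miRNAs nearest to it, relative to each miRNA's mean over the 4 libraries, where lines join the values of one miRNA. lin-4-5p was lowest in ALG-2 library B (181 RPM) and miR-237-5p in ALG-2 library A (4225 RPM), and the nearest profiles had their lowest values in the same library except for miR-57-5p beside lin-4-5p.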

How the data were processed

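Synchronized adults were lysed at day 5, tagged ALG-1 or ALG-2 was bound to anti-FLAG beads, and small RNAs from the beads were sequenced on the Illumina platform after TruSeq library preparation. The authors removed adapters (cutadapt, per the submitters' processing notes), mapped the reads to genome release WS261 with miRDeep2 (versions not given in the sources used here), quantified miRBase release 21 miRNAs and deposited RPM values. The lowest sum of a listed miRNA over the 4 libraries was 1003 RPM.

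All 66 values of every column were whole multiples of 1 read within 0.001 reads at the library sizes used here, the smallest at which this held. Read counts and counting errors are therefore inferred from the RPM values. Counting intervals reflect read sampling alone, because molecules were not barcoded. miR-44-3p and miR-45-3p held identical values and were kept as listed, so both count in the share taken by the listed miRNAs. Columns name the Argonaute, not the replicate, so every ratio between libraries was used. Whether the samples came from separate cultures is not stated beyond their being independent. The limma p-values therefore set a difference between co-IPs against the spread between these libraries, with each miRNA's spread drawn toward that of all miRNAs.

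limma 3.58.1 in R 4.3.3 was fitted to log2(RPM + 1) of all 66 miRNAs, with a variance trend, no block and an adjusted p threshold of 0.05. It was tested on simulated data with larger differences than those of the members, so detection of differences of their size was not tested. Alternatives were other pseudocounts, scalings, thresholds, minimums and blocks, and leaving out libraries. The scalings of the listed families were added after seeing the data. Named miRNAs were the members, 4 miRNAs of the let-7 family and 7 lifespan miRNAs. The miR-35 family as embryo markers, the 3 nearest profiles to each member and the neighbours by mean were also named. Members and lists were chosen with earlier results of these data known. Gene positions came from the RefSeq annotation of WBcel235.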

Additional observations from a re-analysis of the deposited data

How the results depend on the processing

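Both members kept their direction in every fit that held them, and lin-4-5p was not in the fit with a minimum of 4000 RPM. With all libraries in use, the log2 ratio ranged from 1.43 to 1.70 for lin-4-5p (limma adjusted p from 0.119 to 0.297) and from 1.23 to 1.496 for miR-237-5p (limma adjusted p from 0.130 to 0.224). When 1 library was left out, they ranged from 1.24 to 2.16 and from 1.197 to 1.79, and the limma adjusted p from 0.0672 to 0.754 and from 0.0504 to 0.800. The group left with 1 library was then assumed to vary like the other. Since the groups of both members do not overlap, omitting 1 library could not turn their direction.

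The limma count higher with ALG-1 was 0 in each of these fits but 1. The replicate block gave 0 with pairs in column order and 2 with crossed pairs, and left the adjusted p of lin-4-5p at 0.163 and 0.158 and that of miR-237-5p at 0.194 and 0.224 (limma). The deviations of libraries paired in column order correlated at -0.21, and the crossed pairing was chosen after seeing the data.

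Both members passed the 1.5-fold requirement under each scaling. They also passed under each pairing and left-out library, but this was fixed in advance, because only some of the same 4 ratios were then used. A minimum of 4000 summed RPM kept 46 miRNAs, of which 5 were enriched with ALG-1, and left 1 member, because lin-4-5p was too rare. The ratio of group means gave 17 miRNAs in place of 9, and leaving out 1 library gave 12 (ALG-1 library A), 14 (ALG-1 library B) or 18 (either ALG-2 library), since fewer ratios must then pass. The log2 difference between the members changed sign without ALG-1 library A (0.097) and without ALG-2 library B (0.55), and ranged from -0.97 to 0.55 over the 4 left-out libraries. The cause was not tested. edgeR and DESeq2 were not run, because the table is short and holds RPM. Counting error was at most 1.53% for lin-4-5p, below the spread between its libraries.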
